A study of Mus musculus with 21 samples.

Results

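MiR-26a-5p and miR-26b-5p, the guide strands of the miR-26 family, were followed through small-RNA sequencing of the mouse pituitary. They were picked by name, under a rule that reads no measured value, and are 2 of the 1909 miRNAs listed for virgin females and 2 of the 1841 listed for females of a breeding trial. The study asked what is lost when *Zeb1*, which encodes a transcriptional repressor, escapes control by the miR-200 family, and made a knock-in allele whose 3′ UTR no longer responds to miR-200a or miR-200b. Zeb1_200H mice carry this allele on 1 chromosome and Zeb1_200M mice are homozygous for it. All mice, WT included, were C57BL/6J females, collected in proestrus. The virgin mice were 8 to 12 weeks old, with 3 WT, 4 Zeb1_200H and 4 Zeb1_200M libraries, and the mice that had been through the breeding trial were 28 to 36 weeks old, with 4 WT, 3 Zeb1_200H and 3 Zeb1_200M libraries. The allele is present in every cell of the animal, both cohorts descend from a pair of clonal knock-in lines, and the labels do not give the line of a library.

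A miRNA guides an Argonaute protein to mRNAs that pair with its seed, the stretch of bases near its 5′ end, and lowers the stability and translation of those mRNAs. The miR-26 hairpins lie in introns of genes for small phosphatases of the RNA polymerase II C-terminal domain, which also keep the retinoblastoma protein active, and miR-26 is widely expressed in differentiated tissues, where it is known to restrain the cell cycle and to repress *Ezh2*. In the pituitary, miR-26b has been linked to differentiation of the lineage that expresses the transcription factor Pit-1, through repression of *Lef1*.

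The mature strands are shown because everything counted here depends on telling them apart. They are RefSeq sequences of the mouse build GRCm38.p6, written 5′ to 3′, and capitals mark the seed (bases 2 to 8).
miR-26a-5p: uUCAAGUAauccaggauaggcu
miR-26b-5p: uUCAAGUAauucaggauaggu
miR-26a-1-3p: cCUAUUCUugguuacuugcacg
miR-26a-2-3p: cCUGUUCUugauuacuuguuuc
miR-26b-3p: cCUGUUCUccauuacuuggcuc
The first 2 strands are the guides, and the others are the opposite (passenger) strands of the 3 hairpins. MiR-26a-5p has 22 bases and miR-26b-5p has 21. Counted from the 5′ end, they differ by C11U and C21U, with the base of miR-26a-5p first. The authors assigned reads by their first 19 bases for the virgin mice and 18 for the breeding trial, so position 11 alone separated the guides. Among 1679 mature mouse miRNA names in the reference, no name other than these 2 carries the seed UCAAGUA. MiR-26a-2-3p and miR-26b-3p share a seed that miR-26a-1-3p does not have.

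MiR-26a-5p is encoded in 2 places, at chr9:119031811-119031832 in *Mir26a-1* (ENSMUSG00000065513) and at chr10:126995543-126995564 in *Mir26a-2* (ENSMUSG00000065430). These copies are identical, so its reads cannot be divided between them. MiR-26b-5p comes from *Mir26b* (ENSMUSG00000065468) at chr1:74394324-74394344. All 3 hairpins lie on the plus strand, in the direction of their host genes. *Mir26a-1* sits in an intron of *Ctdspl* and *Mir26b* in an intron of *Ctdsp1*, with 0 annotated exons overlapping either hairpin. *Mir26a-2* sits in an intron of the longest *Ctdsp2* transcript, and its last base, 126995613, is also the first base of 2 shorter *Ctdsp2* transcripts.

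Virgin libraries held 3816917 to 10806313 counted reads, and breeding trial libraries 60037 to 191650. The least covered value of a guide was miR-26b-5p in Zeb1_200H replicate 3 of the breeding trial, with 487 reads, or 8112 CPM (counts per 1000000 counted reads of the library; exact Clopper-Pearson 95% interval 7410 to 8862). Such intervals cover only the sampling of reads within a library. The methods name no collapse of reads to molecules, so the intervals may be too narrow even for that. WT replicate 1 of the virgin cohort stood apart. It held the fewest reads of its cohort, and its TMM factor (the correction that edgeR derives for the composition of a library) was 0.616, whereas the other 10 libraries had 0.943 to 1.12. MiR-26a-5p was its 4th most abundant miRNA and was 7th to 10th in the other virgin libraries. Fold changes and ratios against virgin WT are therefore given with and without it.

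The tissue was checked against lists of marker miRNAs. The 7 markers of pituitary endocrine and epithelial cells, led by miR-7a-5p, were found in every library, with none at 0. Their sum was lower in the mutants, at 277033 to 397218 CPM in virgin WT, 212628 to 236137 CPM in Zeb1_200H and 189135 to 226681 CPM in Zeb1_200M. The breeding trial had 302520 to 322595 CPM in WT, 224940 to 241193 CPM in Zeb1_200H and 203053 to 221354 CPM in Zeb1_200M. Most names of this list are the miR-200 superfamily, which the paper reports as lower in the mutants. A lower sum therefore does not by itself show less endocrine tissue. Of 3 skeletal muscle and 3 red blood cell markers, 2 each were listed for the breeding trial. The muscle markers reached at most 73.9 CPM and the liver marker miR-122-5p at most 50 CPM. Red blood cell markers, led by miR-451a, ranged from 5269 to 18724 CPM over the virgin and from 5744 to 10781 CPM over the breeding trial libraries. The 6 neural markers, led by miR-124-3p and with none at 0, were higher in the mutants. In the virgin cohort they summed to 2189 to 4102 CPM in WT, 6092 to 6898 CPM in Zeb1_200H and 6660 to 9101 CPM in Zeb1_200M. Breeding trial libraries had 4329 to 5270 CPM in WT, 8128 to 9328 CPM in Zeb1_200H and 12513 to 13199 CPM in Zeb1_200M. Vessel markers, led by miR-126a-3p, summed to 7719 to 8193 CPM in WT, 10077 to 10942 CPM in Zeb1_200H and 10944 to 12331 CPM in Zeb1_200M of the breeding trial, and overlapped between virgin genotypes (5247 to 8478 CPM). Leukocyte markers, led by miR-142a-3p, summed to 547 to 851 CPM in WT, 916 to 1005 CPM in Zeb1_200H and 1224 to 1669 CPM in Zeb1_200M of the breeding trial, where miR-155-5p was at 0 in some libraries. In the virgin cohort they summed to 318 to 580 CPM in WT, 574 to 800 CPM in Zeb1_200H and 652 to 872 CPM in Zeb1_200M, so Zeb1_200M lay above WT and Zeb1_200H overlapped both. Virgin WT replicate 1 stood apart here too. Its pituitary markers summed to 397218 CPM, against 277033 and 281041 CPM in WT replicates 2 and 4. Its neural markers summed to 2189 CPM, against 3926 and 4102 CPM, and its leukocyte markers to 318 CPM, against 519 and 580 CPM. The part of these lists in the miR-26 values was not tested.

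In virgin WT pituitary, miR-26a-5p measured 36296, 24235 and 24430 CPM in replicates 1, 2 and 4. Zeb1_200H replicates 1 to 4 had 26502, 24600, 26883 and 26254 CPM. Zeb1_200M replicates 1 to 4 had 26633, 25137, 25764 and 26233 CPM. WT replicate 1 was above every other library, and the other WT libraries were below every mutant one, so WT overlapped both mutant groups. The order of mean levels was WT (28320 ± 6908, SD, n = 3), Zeb1_200H (26060 ± 1007, n = 4) and Zeb1_200M (25942 ± 644, n = 4), and neighbours in this order differed by less than their spread. Without WT replicate 1 the mean of WT was 24332 CPM, below both mutant means. After scaling by the TMM factors, WT replicate 1 was at 58957 CPM and the other 10 libraries spanned 22459 to 25951 CPM.

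MiR-26b-5p was less abundant and went the other way in that library. Virgin WT replicates 1, 2 and 4 had 4645, 7145 and 6992 CPM. Zeb1_200H replicates 1 to 4 had 6713, 6605, 6695 and 6471 CPM. Zeb1_200M replicates 1 to 4 had 7053, 6269, 6571 and 6846 CPM. WT replicate 1 was the lowest of all, and the groups overlapped. Mean levels ran from Zeb1_200M (6685 ± 340, SD, n = 4) through Zeb1_200H (6621 ± 111, n = 4) to WT (6261 ± 1401, n = 3), with neighbours closer than their spread. Without WT replicate 1 the mean of WT was 7069 CPM, above both mutant means, so the place of WT rests on that library. On the TMM scale the order was reversed with all libraries. WT then had 7546, 7576 and 7132 CPM, above all Zeb1_200H libraries (6084 to 6463 CPM) and all Zeb1_200M libraries (5601 to 6624 CPM).

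The question of the virgin comparisons was whether the allele changed the level of either guide. A miRNA is called where edgeR's quasi-likelihood F test gives an adjusted p (Benjamini-Hochberg over all miRNAs tested) below 0.05. In Zeb1_200M against WT 0 of the 2 guides were called, where 6.49% of 678 miRNAs tested were. At an unadjusted p below 0.05 edgeR counted 0 of the 2 guides and 150 of 678 miRNAs. The unadjusted p of miR-26b-5p was near that line, at 0.0503 in edgeR and 0.0445 in DESeq2. The log2 fold change of miR-26a-5p was −0.62 (SE 0.295, edgeR adjusted p = 0.260) and that of miR-26b-5p was −0.28 (SE 0.121, edgeR adjusted p = 0.225). Of the 2 guides, miR-26b-5p had TMM-scaled ranges that did not overlap, as had 26% of all miRNAs tested, and 0 had separate CPM ranges, against 35.1% of all. Without WT replicate 1, the value of miR-26a-5p went to −0.07 (edgeR adjusted p = 0.491). MiR-26b-5p went to −0.24 and was called, with an edgeR adjusted p of 0.0498 and 4 of 4 mutant libraries below both remaining WT libraries on the TMM scale. In that fit 23.9% of 703 miRNAs were called. Adjusted p of miR-26b-5p ran from 0.0221 to 0.760 over 11 alternatives and was below 0.05 in 2 of them, limma voom with sample quality weights and DESeq2 without WT replicate 1. With all libraries DESeq2 called 0 of the guides in either virgin comparison with WT, where it called 6.53% (Zeb1_200M) and 4.93% (Zeb1_200H) of the 1318 and 1339 miRNAs it gave a p.

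Zeb1_200H against WT gave similar values, from the same WT libraries. Of the 2 guides 0 were called, with 5.06% of 672 miRNAs called. At an unadjusted p below 0.05 edgeR counted 0 of the 2 guides and 131 of 672 miRNAs. The unadjusted p of miR-26b-5p was 0.0629 in edgeR and 0.0301 in DESeq2. MiR-26a-5p had a log2 fold change of −0.57 (SE 0.300, edgeR adjusted p = 0.309) and miR-26b-5p of −0.24 (SE 0.111, edgeR adjusted p = 0.279). TMM-scaled ranges were apart for miR-26b-5p and for 25.4% of all miRNAs, and CPM ranges were apart for 0 of the 2 guides and for 33.2% of all. Without WT replicate 1, miR-26a-5p was at −0.03 (edgeR adjusted p = 0.824). MiR-26b-5p was at −0.22 and was called (edgeR adjusted p = 0.0289, 4 of 4 libraries below both WT libraries on the TMM scale), where 21.6% of 699 miRNAs were called. Its adjusted p ran from 0.00918 to 0.795 over 11 alternatives, with the same 2 below 0.05. In bulk tissue, fewer cells of a type and less RNA per cell cannot be told apart.

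Between the virgin mutants 2.22% of 675 miRNAs and 0 of the 2 guides were called. The log2 fold change, Zeb1_200M over Zeb1_200H, was −0.06 (SE 0.0538, edgeR adjusted p = 0.777) for miR-26a-5p and −0.04 (SE 0.0596, edgeR adjusted p = 0.899) for miR-26b-5p. At unadjusted p below 0.05 in edgeR the count was also 0 of 2, beside 63 of 675 over all. DESeq2 called 0 of the guides, with 1.47% of all called.

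The scale matters for every comparison with WT. When libraries were scaled by their totals alone, the median log2 fold change of all miRNAs moved from near 0 to 0.34 for Zeb1_200M and 0.29 for Zeb1_200H in the virgin cohort, and to 0.23 and 0.18 in the breeding trial. MiR-26b-5p in virgin mice then changed sign, to 0.09 and 0.08, and still lay below the median of all miRNAs. MiR-26a-5p in virgin mice shrank to −0.127 and −0.120 with totals alone. With limma voom with sample quality weights it was at −0.126 and −0.0456.

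MiR-26a-5p of the breeding trial measured 27053, 23926, 26221 and 27790 CPM in WT replicates 1 to 4. Zeb1_200H replicates 1, 3 and 4 had 28408, 28716 and 31106 CPM. Zeb1_200M replicates 1 to 3 had 25700, 30252 and 27026 CPM. All Zeb1_200H libraries were above all WT libraries in CPM, whereas Zeb1_200M overlapped both other groups. The order of means was Zeb1_200H (29410 ± 1477, SD, n = 3), Zeb1_200M (27659 ± 2341, n = 3) and WT (26248 ± 1676, n = 4), and neighbours were closer than their spread. On the TMM scale Zeb1_200H (27710 to 29526 CPM) fell within WT (25049 to 31098 CPM).

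MiR-26b-5p of the breeding trial had 8845, 7987, 8241 and 8072 CPM in WT replicates 1 to 4. Zeb1_200H replicates 1, 3 and 4 had 8273, 8112 and 8391 CPM. Zeb1_200M replicates 1 to 3 had 8076, 8382 and 7793 CPM. The 3 groups overlapped, and the means of WT (8286 ± 387, SD, n = 4), Zeb1_200H (8259 ± 140, n = 3) and Zeb1_200M (8084 ± 295, n = 3) were closer than their spread. On the TMM scale WT separated from both mutants. It had 9589, 8362, 8981 and 9033 CPM, above Zeb1_200H with 8079, 7828 and 7965 CPM. Zeb1_200M had 7546, 7879 and 7166 CPM, with its highest library above the lowest of Zeb1_200H and all 3 below WT.

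**Figure D1:**
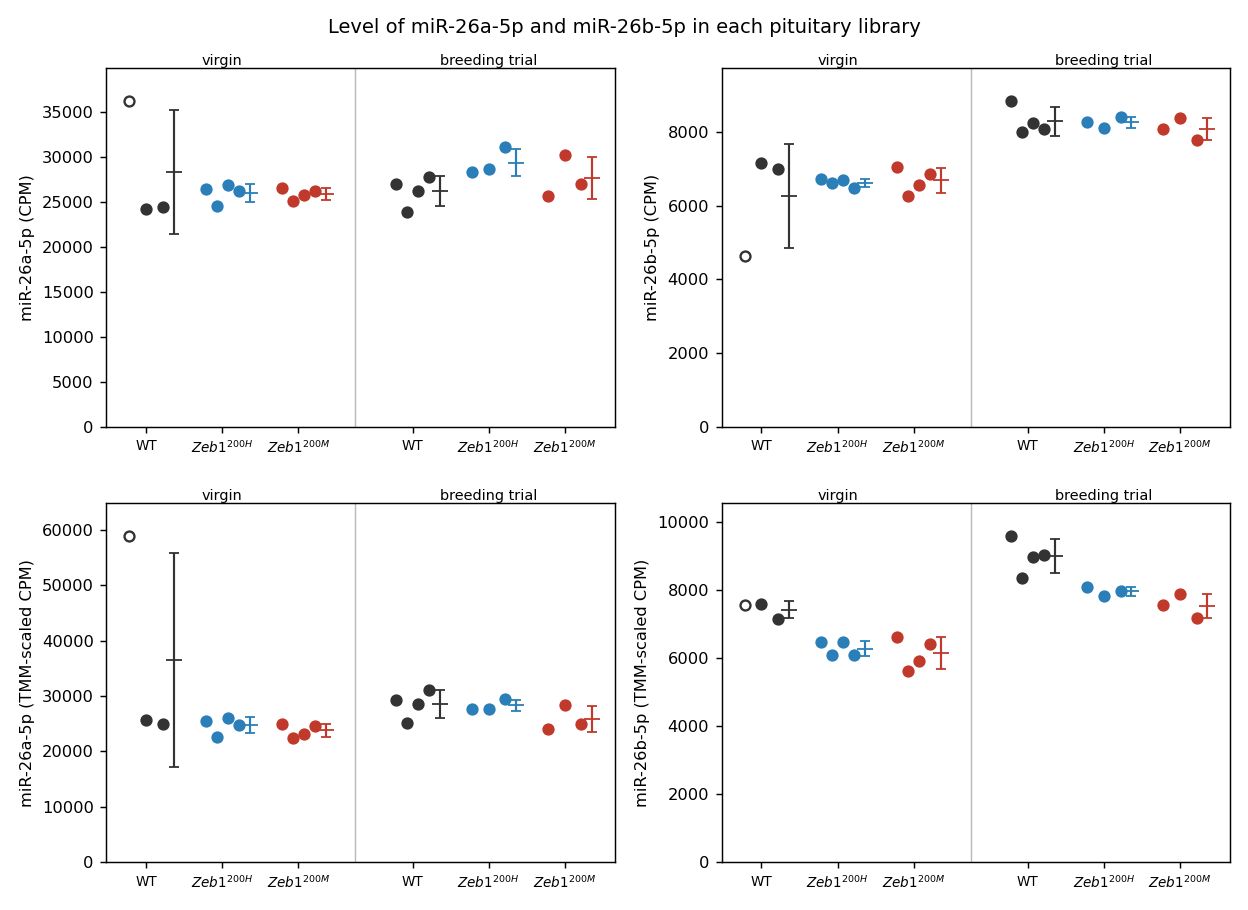
Level of each guide in CPM (upper panels) and TMM-scaled CPM (lower panels), by genotype and cohort, with a dot for each library, an open circle for virgin WT replicate 1, and a dash with bar for mean and SD. MiR-26a-5p of that library stands at 36296 CPM, above the 10 other virgin libraries (24235 to 26883 CPM), and miR-26b-5p of WT lies above both mutants on the TMM scale but not in CPM.

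MiR-26b-5p fell in Zeb1_200M pituitary after the breeding trial. Its log2 fold change against WT was −0.27 (SE 0.0940, edgeR adjusted p = 0.0271), a fold of 0.830, with 3 of 3 mutant libraries below all 4 WT libraries on the TMM scale. It was 1 of the 2 guides called, where edgeR called 35.9% of 276 miRNAs, so the edgeR call is nothing particular to miR-26b-5p. DESeq2 also called miR-26b-5p lower (−0.298, DESeq2 adjusted p = 0.0118), as 1 of the 2 guides, where 10.3% of 709 miRNAs were called. TMM-scaled ranges were apart for miR-26b-5p and for 40.2% of all miRNAs, and CPM ranges for 0 of the 2 guides and 42.4% of all. The neural, vessel and leukocyte markers given above were higher in the same libraries. The pituitary markers, most of them the miR-200 superfamily, were lower. The part of these markers in the fall was not tested. Scaled by totals alone, miR-26b-5p was at −0.04 (edgeR adjusted p = 0.750), below the median of 0.23 of all miRNAs. The call was lost without WT replicate 1 (adjusted p = 0.112), without Zeb1_200M replicate 1 (0.0764) and without Zeb1_200M replicate 3 (0.163), with values from −0.30 to −0.21 over all libraries left out in turn. Over 10 alternatives the edgeR, limma or DESeq2 adjusted p ran from 0.0118 to 0.750, with 8 below 0.05. MiR-26a-5p was not called, at −0.16 (SE 0.0978, edgeR adjusted p = 0.231), and its sign turned when totals alone were used (0.08). With each library left out in turn, miR-26a-5p ran from −0.234 to −0.0948 and was called in 0 of 7 fits.

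In Zeb1_200H against WT of the breeding trial, 12% of 267 miRNAs and 0 of the 2 guides were called. MiR-26a-5p was at −0.0083 (SE 0.0976, edgeR adjusted p = 0.965), with the sign turned by totals alone (0.16), and miR-26b-5p at −0.18 (SE 0.104, edgeR adjusted p = 0.277). At unadjusted p below 0.05 edgeR counted 0 of 2, beside 73 of 267 over all. DESeq2 called 0 of the guides, with 3.77% of all called. CPM ranges were apart for miR-26a-5p and for 29.6% of all miRNAs, and TMM-scaled ranges for miR-26b-5p and for 23.2% of all. These values are unpaired. With the replicate number as a block, they were −0.06 (edgeR adjusted p = 0.689) for miR-26a-5p and −0.20 (edgeR adjusted p = 0.197) for miR-26b-5p, and 47 of 267 miRNAs (17.6%) were called in place of 32. Adjusted p ran from 0.203 to 0.996 for miR-26a-5p and from 0.169 to 0.979 for miR-26b-5p over 10 alternatives each.

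Between Zeb1_200M and Zeb1_200H of the breeding trial, 1.09% of 274 miRNAs and 0 of the 2 guides were called. The values were −0.13 (SE 0.104, edgeR adjusted p = 0.622) for miR-26a-5p and −0.07 (SE 0.123, edgeR adjusted p = 0.846) for miR-26b-5p. Here too 0 of 2 had an unadjusted p below 0.05 in edgeR, beside 40 of 274 over all. DESeq2 called 0 of the guides, with 0.449% of all called.

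Whether the genotype effect differed between cohorts was tested as an interaction over 562 miRNAs in edgeR, where 0% were called in each of the 3 genotype comparisons (0 of 562, with 43, 50 and 16 at an unadjusted p below 0.05 and 0 called by DESeq2). The difference, breeding trial minus virgin, for Zeb1_200M against WT was 0.01 (SE 0.142, edgeR adjusted p = 1.00) for miR-26b-5p and 0.48 (SE 0.285, edgeR adjusted p = 0.680) for miR-26a-5p. For Zeb1_200H against WT it was 0.07 (SE 0.142, edgeR adjusted p = 0.907) and 0.56 (SE 0.285, edgeR adjusted p = 0.533). Between the mutants it was −0.05 (SE 0.143) and −0.09 (SE 0.286), each with an edgeR adjusted p of 1.00. Without virgin WT replicate 1, the difference for miR-26a-5p was −0.17 for Zeb1_200M and −0.06 for Zeb1_200H, and over 24 alternatives its adjusted p ran from 0.191 to 1 and from 0.148 to 1. The difference for miR-26b-5p also turned sign without that library, to −0.11 (edgeR adjusted p = 0.860) and −0.04 (edgeR adjusted p = 0.980). The fall of miR-26b-5p after the breeding trial is thus not shown to differ from its change in virgin mice. Levels were not compared between cohorts, because age, breeding, RNA input, carrier RNA, instrument and dictionary changed together and cannot be told apart.

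The guides were next compared within each library, where no scaling enters. Virgin WT replicates 1, 2 and 4 had 0.128, 0.295 and 0.286 reads of miR-26b-5p per read of miR-26a-5p. Zeb1_200H replicates 1 to 4 had 0.253, 0.268, 0.249 and 0.246. Zeb1_200M replicates 1 to 4 had 0.265, 0.249, 0.255 and 0.261. WT replicate 1 was the lowest library, while the other WT libraries were above all mutants. The mean log2 ratio differed from WT by 0.22 in Zeb1_200M and 0.20 in Zeb1_200H (2-sided exact permutation p = 0.857 for each, adjusted p = 0.857 over 9 ratio comparisons). Without WT replicate 1 it differed by −0.17 and −0.19, with groups apart and an exact permutation p of 0.133 for Zeb1_200M, the smallest that 2 against 4 libraries can give. Zeb1_200M and Zeb1_200H differed by 0.02 (exact permutation p = 0.600, adjusted p = 0.771).

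The ratio in the breeding trial was 0.327, 0.334, 0.314 and 0.290 in WT replicates 1 to 4. Zeb1_200H replicates 1, 3 and 4 had 0.291, 0.282 and 0.270. The Zeb1_200M libraries had 0.314, 0.277 and 0.288. WT replicate 4 overlapped the mutants, WT replicate 3 was level with Zeb1_200M replicate 1, and the other 2 WT libraries were above every mutant ratio. The mean log2 ratio differed from WT by −0.11 in Zeb1_200M and −0.17 in Zeb1_200H (exact permutation p = 0.114 for each, adjusted p = 0.343), where 3 against 4 libraries cannot go below 0.0571. With each library left out in turn, the difference ran from −0.16 (without Zeb1_200M replicate 1, ranges apart) to −0.07 (without replicate 2) in Zeb1_200M and from −0.21 to −0.14 in Zeb1_200H. Paired by replicate number, Zeb1_200H was below WT in 3 of 3 pairs, with a mean difference of −0.14 (exact permutation p = 0.250 within pairs, the smallest that 3 pairs can give). Zeb1_200M and Zeb1_200H differed by 0.06 (exact permutation p = 0.500, adjusted p = 0.750), with 0.1 as the smallest p, and by 0.0084 without Zeb1_200M replicate 1. Together, the guides took 3.46%, 3.27% and 3.26% of counted reads in WT, Zeb1_200H and Zeb1_200M of the virgin cohort and 3.45%, 3.77% and 3.57% in the breeding trial (means). Without virgin WT replicate 1 the mean of virgin WT was 3.14%, below both mutants, so the order turned.

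**Figure D2:**
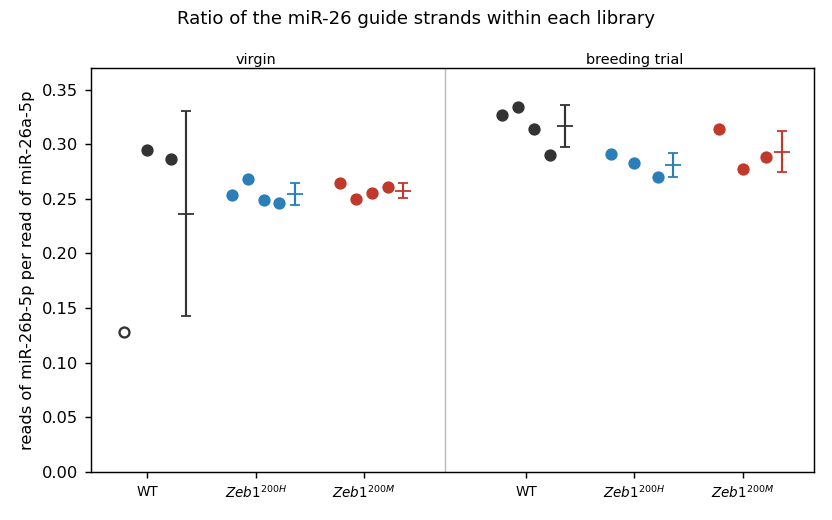
Reads of miR-26b-5p per read of miR-26a-5p in each library, by genotype and cohort, with an open circle for virgin WT replicate 1 and a dash with bar for mean and SD. Apart from that library (0.128), virgin WT libraries (0.286 and 0.295) lie above all virgin mutants (0.246 to 0.268).

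The passenger strand of a hairpin is mostly degraded once the guide has been loaded into Argonaute. MiR-26b-3p in virgin WT replicates 1, 2 and 4 measured 23.3, 17.4 and 21.3 CPM. Zeb1_200H replicates 1 to 4 had 16.7, 14.4, 13.4 and 15.1 CPM. Zeb1_200M replicates 1 to 4 had 17.5, 16.4, 15.9 and 15.4 CPM. All Zeb1_200H libraries were below all WT libraries, whereas Zeb1_200M overlapped WT by 1 library. CPM ranges were apart for 33.2% of 672 miRNAs in Zeb1_200H against WT and for 35.1% of 678 in Zeb1_200M against WT. The log2 fold change against WT was −0.84 in Zeb1_200H (SE 0.264, edgeR adjusted p = 0.138) and −0.77 in Zeb1_200M (SE 0.259, edgeR adjusted p = 0.128), and neither was called. Of all miRNAs, 5.06% and 6.49% were called in these fits. Without WT replicate 1 the values were −0.50 (edgeR adjusted p = 0.0356, called) and −0.40 (edgeR adjusted p = 0.0762), where 21.6% and 23.9% of all miRNAs were called. Over 11 alternatives each, adjusted p ran from 0.0307 to 0.408 for Zeb1_200H, with 4 below 0.05, and from 0.0348 to 0.444 for Zeb1_200M, with 2 below 0.05. The mutants differed by 0.07 (edgeR adjusted p = 0.920).

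Per 1000 reads of miR-26b-5p, the *Mir26b* hairpin gave 3.50 ± 1.35 reads of its 3p strand in virgin WT (SD, n = 3), 2.25 ± 0.206 in Zeb1_200H and 2.44 ± 0.153 in Zeb1_200M (n = 4 each). The *Mir26a* hairpins together gave fewer, with 0.230 ± 0.162, 0.295 ± 0.0258 and 0.311 ± 0.0412 reads per 1000 reads of miR-26a-5p. Without WT replicate 1, where these hairpins had 7 passenger reads, the WT means were 2.74 for *Mir26b*, still above both mutants, and 0.319 for the *Mir26a* hairpins, now above them as well. The log2 ratio of miR-26b-3p to miR-26b-5p differed from WT by −0.45 in Zeb1_200M (exact permutation p = 0.171, adjusted p = 0.36) and by −0.57 in Zeb1_200H (exact permutation p = 0.114, adjusted p = 0.343). Leaving out WT replicate 1 brought these differences to −0.16 and −0.28 (exact permutation p = 0.4 and 0.267). Between the mutants the difference was 0.12 (exact permutation p = 0.200, adjusted p = 0.36).

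MiR-26a-2-3p, with 4 to 76 reads in virgin libraries, and miR-26a-1-3p, with 3 to 21, were not called by edgeR or DESeq2 in any virgin comparison, and 0 of 2 had an unadjusted p below 0.05 in edgeR. Over all miRNAs 6.49%, 5.06% and 2.22% were called by edgeR and 6.53%, 4.93% and 1.47% by DESeq2 for Zeb1_200M against WT, Zeb1_200H against WT and between the mutants, and 150 of 678, 131 of 672 and 63 of 675 had an unadjusted p below 0.05 in edgeR. MiR-26a-2-3p of WT replicate 1 had 1.05 CPM, below the 5.15 to 7.06 CPM of the other 10 libraries, although its guide was highest there. The 3 passenger strands of the breeding trial had 0 to 4 reads in a library and did not pass the expression filter, so a difference was not detectable at this depth.

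In the order of mean WT levels miR-26a-5p was 6th in virgin WT, a place that rests on replicate 1, since it was 4th in that library, 9th in each of the other 2 and 9th by their mean. It came after miR-7b-5p (45385 ± 4222 CPM), miR-29a-3p (37171 ± 4607) and miR-29b-3p (31492 ± 11502), and before miR-127-3p (28014 ± 2989), let-7c-5p (26034 ± 798) and let-7f-5p (24815 ± 5653; SD, n = 3). In breeding trial WT it was 7th, after miR-7b-5p (50467 ± 5647 CPM), miR-29b-3p (36809 ± 6328) and miR-127-3p (29563 ± 2110), and before miR-29c-3p (26034 ± 2802), miR-125b-5p (22744 ± 1588) and miR-125a-5p (20986 ± 2871; SD, n = 4). The means of miR-29b-3p, miR-127-3p, let-7c-5p and let-7f-5p in virgin WT, and of miR-29c-3p in breeding trial WT, differed from its own by less than the larger SD.

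MiR-26b-5p was 32nd in virgin WT, between miR-27a-3p (6392 ± 1648 CPM) and let-7d-5p (6143 ± 1771; SD, n = 3), with let-7e-5p (7856 ± 2772) and miR-30b-5p (6652 ± 2216) above and miR-132-3p (6129 ± 278) and miR-23a-3p (5663 ± 2781) below, all closer to it than the larger SD. In breeding trial WT it was 28th. Above it were miR-200b-3p (10142 ± 286 CPM), miR-152-3p (9210 ± 470) and miR-30a-5p (8512 ± 475), and below it let-7d-5p (7814 ± 407), miR-99a-5p (6109 ± 494) and miR-451a (5998 ± 1151; SD, n = 4). Of these, miR-30a-5p alone was closer to it than the larger SD. Of the 12 breeding trial neighbours of the guides, 5 were called in Zeb1_200M against WT, where 35.9% of all were. MiR-125b-5p (0.34, edgeR adjusted p = 0.00751) and miR-29b-3p (0.33, edgeR adjusted p = 0.0248) were higher, and miR-125a-5p (−0.32, edgeR adjusted p = 0.0168), miR-152-3p (−0.57, edgeR adjusted p = 7.69e-05) and miR-200b-3p (−2.90, edgeR adjusted p = 4.84e-18) were lower.

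The 5 miR-26 strands had a median log2 fold change of −0.28 in Zeb1_200M and −0.24 in Zeb1_200H against WT in the virgin cohort, beside −0.0025 and 0.0062 over all miRNAs tested. These medians are the values of miR-26b-5p itself and add nothing to that guide. MiR-26a-5p and miR-26b-3p lay below them, whereas miR-26a-1-3p (0.14 and 0.07) and miR-26a-2-3p (0.08 and 0.07) were above 0. With library totals alone the medians turned to 0.09 and 0.08, beside 0.34 and 0.29 over all, and without WT replicate 1 they were −0.18 and −0.20, beside 0.04 and 0.0091. EdgeR called 0 of 5 in each comparison, where 6.49% and 5.06% of all were called. At an unadjusted p below 0.05 it counted 1 of 5 in each, beside 150 of 678 and 131 of 672 over all. DESeq2 called 0 in Zeb1_200M and 1, miR-26b-3p, in Zeb1_200H, beside 6.53% and 4.93% of all. Without virgin WT replicate 1 edgeR called 1 and 2 of them lower, beside 23.9% and 21.6% of all miRNAs called in those fits. Between the mutants the median was −0.0045, beside −0.01 over all, with 0 called by either tool. At an unadjusted p below 0.05 the edgeR count was 0, beside 63 of 675 over all. In the breeding trial the 2 guides passed the filter, and 1 was lower in Zeb1_200M, where 35.9% of all were called, and 0 with library totals alone.

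A list of widely expressed miRNAs, made of let-7, miR-30, miR-29 and similar families, gives the guides a background of other abundant miRNAs. Of 26 tested in the virgin cohort edgeR called 0 in each comparison, with 4, 3 and 0 at an unadjusted p below 0.05 in Zeb1_200M against WT, Zeb1_200H against WT and between the mutants, where DESeq2 called 3, 2 and 0. Over all miRNAs edgeR called 6.49%, 5.06% and 2.22%, and DESeq2 6.53%, 4.93% and 1.47%. At an unadjusted p below 0.05 edgeR counted 150 of 678, 131 of 672 and 63 of 675 over all. The medians were −0.08, −0.06 and −0.02. They turned to 0.26, 0.24 and 0.04 with library totals alone, beside 0.34, 0.29 and 0.04 over all, and the comparisons with WT were at −0.04 and −0.06 without WT replicate 1. Without virgin WT replicate 1, edgeR called 1 higher and 5 lower in Zeb1_200M, and 2 higher and 2 lower in Zeb1_200H, where 23.9% and 21.6% of all miRNAs were called. Of the list, 20 were tested in the breeding trial, and 7 more names were not in those tables, so the ranks and neighbours of the breeding trial lack them too. Of these, 6 are in the reference and 5 share their first 18 bases with another miRNA, as do 0 of the 1562 reference names in the tables of both cohorts. Whether the dictionary left them out for this was not tested. Zeb1_200M against WT had 1 higher (miR-29b-3p) and 2 lower (miR-191-5p and miR-30d-5p), where 35.9% of all were called, with a median of −0.02 beside 0.00035 over all. DESeq2 called the 2 lower and not miR-29b-3p, beside 10.3% of all. The other comparisons had 0 called by edgeR or DESeq2, where edgeR called 12% and 1.09% and DESeq2 3.77% and 0.449% of all. In Zeb1_200H against WT 5 of the 20 had an unadjusted p below 0.05, as had 73 of 267 over all, and between the mutants 3, as had 40 of 274. With the replicate number as a block, Zeb1_200H against WT had 1 higher, let-7f-5p, beside 17.6% of all called. Scaled by totals alone, 8 were higher in Zeb1_200M and 6 in Zeb1_200H, and 0 were lower, beside 30.1% and 19.9% of all miRNAs higher and the shifted medians of 0.23 and 0.18.

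Of 9 pituitary miRNAs, among them miR-7a-5p, miR-375-3p and the miR-200 superfamily, 5 were lower in each virgin comparison, with medians of −2.89, −2.38 and −0.47 for Zeb1_200M against WT, Zeb1_200H against WT and between the mutants, where 6.49%, 5.06% and 2.22% of all miRNAs were called. These 5 were the miR-200 superfamily, which the study itself examined in these samples, so their direction is not independent evidence. Without virgin WT replicate 1, 6 were lower in each mutant against WT, with miR-375-3p added, beside the same 23.9% and 21.6% of all. DESeq2 with all virgin libraries also called these 6 lower in each mutant against WT, beside 6.53% and 4.93% of all. It called 5 lower between the virgin mutants, beside 1.47% of all. In the breeding trial 7, 6 and 2 were lower, with medians of −2.90, −2.31 and −0.34, where 35.9%, 12% and 1.09% of all were called. Library totals alone gave 6 lower in Zeb1_200M, without miR-7a-5p, and 6 lower and 2 higher (miR-132-3p and miR-212-3p) in Zeb1_200H, beside 30.1% and 19.9% of all higher and 26 of 276 and 15 of 267 lower. The replicate block gave 7 lower in Zeb1_200H, with miR-7a-5p added, beside 17.6% of all called.

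Likeness to each guide was measured over 154 miRNAs as the smaller of 2 Pearson correlations of log2 TMM-scaled CPM, 1 over the 11 virgin and 1 over the 10 breeding trial libraries. The points share genotype and scaling factors. On this scale the guides correlated with each other at r = 0.614 in virgin and 0.654 in breeding trial libraries (Spearman's rho 0.855 and 0.721), and at 0.746 over the virgin libraries without WT replicate 1. A shared scaling factor moves both guides the same way. In CPM, virgin WT replicate 1 had the highest miR-26a-5p (36296) and the lowest miR-26b-5p (4645) of its cohort. These values therefore do not show that the guides rise and fall together in CPM. MiR-26b-5p was 2nd in likeness to miR-26a-5p, while miR-26a-5p was 20th in likeness to miR-26b-5p.

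MiR-26a-5p was most like miR-7a-5p (r = 0.969 virgin, 0.699 breeding trial), then miR-26b-5p, miR-16-5p (0.991 and 0.607), miR-376c-3p (0.716 and 0.565) and miR-335-5p (0.918 and 0.551). The virgin correlations rest in part on WT replicate 1, without which they were 0.552 for miR-7a-5p, 0.691 for miR-16-5p, 0.209 for miR-376c-3p and 0.583 for miR-335-5p. MiR-26b-5p was most like miR-96-5p (r = 0.907 and 0.922), miR-200b-3p (0.898 and 0.882), miR-429-3p (0.883 and 0.874), miR-141-3p (0.865 and 0.919) and miR-200a-3p (0.898 and 0.855), most of them members of the miR-200 superfamily, whose levels differ strongly between genotypes. With CPM in place of TMM-scaled CPM, 1 of the 5 for miR-26a-5p and 0 of the 5 for miR-26b-5p were again among the most alike. In the same order, Spearman's rho kept 2 and 3, and a minimum mean of 10 counts kept 2 and 5. Without virgin WT replicate 1, 4 stayed for each guide. MiR-26b-5p then came first for miR-26a-5p, and miR-335-5p for miR-26b-5p.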

How the data were processed

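Small RNAs of 21 pituitary libraries were measured. The deposited values are raw read counts per miRNA. According to the methods, the authors trimmed adapters, filtered reads by quality, and matched read starts to miRNA dictionaries. RNA input per the labels was 3 μg for virgin mice (2 μg in the paper's methods) and 0.5 μg with 3 μg of yeast carrier for the breeding trial. Each library is in 2 tables, with 0 differing values.

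Each pair of genotypes within a cohort was fitted on the whole table in R 4.3.3 with edgeR 4.0.16 (TMM, minimum count 10, minimum total count 15), and SE was derived from the F statistic. Ratios were compared by 2-sided exact permutation tests. Members were named by rule, with the 3 miRNAs just above and below each in WT and the 5 most alike (mean of at least 50 counts in each cohort). These names and lists were put forward with earlier results of these data known, although the rule for the guides reads no value. Alternatives were DESeq2 1.42.0, limma 3.58.1 (voom with sample quality weights), a robust edgeR fit, DESeq2 size factors, library totals alone, TMM without the miR-200 superfamily, other filters, a fit of 3 genotypes, replicate blocks and each library left out.

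After removal of group means, Zeb1_200H and WT libraries with equal replicate numbers in the breeding trial correlated at 0.112, 0.100 and 0.190, above 0.1 in 3 of 3 pairs, so blocked values of the guides, their ratio and the lists are given beside the unpaired ones in that comparison. The difference between cohorts was fitted unpaired. No label ties the numbers to litters or batches. Other comparisons did not pass 0.1 in every pair.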

Additional observations from a re-analysis of the deposited data

How the results depend on the processing

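Over 27 results on the guides, their ratios and the difference between cohorts, with 428 alternative values, 386 kept their direction and their side of the threshold, 31 changed sign, 6 gained and 5 lost a call. For 9 virgin fold changes of passenger strands, 130 of 159 values kept both, 22 changed sign (13 of them miR-26a-2-3p between the mutants) and 7, all miR-26b-3p, gained a call. The cause was not tested unless said otherwise.

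With library totals alone, which leave the shift of all miRNAs in place, miR-26b-5p was at 0.0945 (Zeb1_200M against WT), 0.0806 (Zeb1_200H against WT) and 0.0139 (between the mutants) in the virgin cohort. In the breeding trial with totals alone, miR-26a-5p was at 0.0756 and 0.164 and miR-26b-5p, no longer called, at −0.0360 for Zeb1_200M against WT. The difference between cohorts for miR-26b-5p was then −0.130 for Zeb1_200M and −0.0853 for Zeb1_200H. With the replicate number as a block, miR-26b-5p in Zeb1_200M of the breeding trial was at −0.269 and lost its call (edgeR adjusted p = 0.0758). The block changed no call of a guide in the other comparisons.

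MiR-26b-5p gained a virgin call with limma voom with sample quality weights (−0.283 and −0.223 for Zeb1_200M and Zeb1_200H) and with DESeq2 without WT replicate 1 (−0.266 and −0.240), an alternative chosen after seeing the data, as were the ratio with 3p strands, the lists without that library and the lists with a block. MiR-26a-2-3p turned to −0.198 and −0.226 with limma voom with sample quality weights and to −0.204 and −0.215 with DESeq2 without WT replicate 1, where miR-26a-1-3p in Zeb1_200H was at −0.00761. Between the virgin mutants, miR-26a-2-3p turned from −0.0045 to 0.00393 with DESeq2 size factors, 0.0503 with totals alone, 0.00209 with TMM without the miR-200 superfamily, 0.00309 with DESeq2, 0.0267 with limma voom with sample quality weights, 0.0100 without a filter, 0.00368 with a minimum mean of 50 counts and 0.00565 with 3 genotypes fitted together.

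Leaving out each library in turn in the virgin cohort gave, for Zeb1_200M and Zeb1_200H against WT, −0.308 to −0.232 and −0.257 to −0.224 for miR-26b-5p, −0.177 to 0.463 and −0.200 to 0.450 for miR-26a-2-3p, and −0.0542 to 0.323 for miR-26a-1-3p in Zeb1_200H. Between the virgin mutants it gave −0.0694 to 0.0115 for miR-26b-5p, −0.0438 to 0.202 for miR-26a-1-3p and −0.0573 to 0.0754 for miR-26a-2-3p. In the breeding trial it gave −0.302 to −0.212 for miR-26b-5p in Zeb1_200M and −0.0575 to 0.0297 for miR-26a-5p in Zeb1_200H. For the difference between cohorts it gave −0.171 to 0.692 (miR-26a-5p) and −0.129 to 0.0735 (miR-26b-5p) in Zeb1_200M, −0.0638 to 0.768 and −0.0552 to 0.0924 in Zeb1_200H, and −0.111 to 0.0221 for miR-26b-5p between the mutants. The virgin log2 ratio of the guides ranged from −0.174 to 0.428 in Zeb1_200M and −0.193 to 0.409 in Zeb1_200H, with the negative ends without WT replicate 1.

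The number of miRNAs called in virgin Zeb1_200M against WT went from 44 to 86 (DESeq2), 184 (limma voom with sample quality weights), 90 (3 genotypes), 20 (block), 174 (DESeq2 without WT replicate 1) and 25 to 168 with a library left out, and in Zeb1_200H from 34 to 66, 152, 67, 18, 158 and 21 to 151. Between virgin mutants 15 went to 5 with 3 genotypes. In the breeding trial 32 in Zeb1_200H went to 68 with totals alone, and 3 between mutants to 5 (limma voom with sample quality weights, block), 6 (minimum mean 50) and 3 to 5. Totals alone changed higher and lower calls from 18 and 26 to 39 and 19, and from 11 and 23 to 21 and 21 (virgin Zeb1_200M and Zeb1_200H), and from 56 and 43 to 83 and 26, and from 13 and 19 to 53 and 15 (breeding trial). Without a filter on low counts, 7, 5 and 0 of 1306 differences between cohorts were called, against 0 of 562. In the breeding trial the passenger strands were below the expression filter, and DESeq2 or edgeR without a filter called 0 of them.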

Other observations

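The seed of miR-26a-2-3p and miR-26b-3p is shared by miR-6932-3p and miR-7039-3p. MiR-6932-3p had 27 reads over the 11 virgin libraries, with at most 7 in a library, and miR-7039-3p had 0. Both had 0 reads in the 10 breeding trial libraries.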
